A study of Mus musculus with 2 samples.

Results

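The splenic ILC1-like cells described here were 511 of the 11989 cell barcodes in the data, 218 in the control library and 293 in the dietary restriction (DR) library. Cell barcodes entered the gate when they showed 500 genes or more and no more than 10% of their UMIs (unique molecular identifiers, each marking 1 captured transcript) came from mitochondrial genes. A UMI of Ncr1 or Klrb1c and 0 UMIs of Cd3e, Cd79a, Ms4a1 and Csf1r were required, which left 5130 control and 4896 DR gated cells. Among these, ILC1-like cells had at least 2 UMIs of Tmem176a plus Tmem176b and at least 1 UMI of Il7r, Cxcr6 or Ckb. The remaining 9515 gated cells, 4912 in control and 4603 in DR, were the comparison population and are called the other gated cells.

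The study asked how dietary restriction altered NK cells of the mouse spleen. NK cells sorted from spleen by flow cytometry were profiled by droplet-based 3' single-cell RNA sequencing, with 1 library from mice on a normal diet (control) and 1 from mice under dietary restriction (DR). Strain, sex, age, the form and length of the restriction, the number of animals behind each library and the antibodies of the sort are not given in the sources used here. With 1 library per group no test of DR against control was possible, and every interval below is a 95% interval that covers counting error only. The ILC1-like cells held 2263430 UMIs in control and 2441863 in DR. Their median depth was 9059 UMIs per cell in control and 7586 in DR, against 7178 and 5519 in the other gated cells. The libraries shared 13 barcodes, 0 of them among the ILC1-like cells.

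Group 1 innate lymphoid cells (ILC1) and NK cells both carry NKp46 (Ncr1) and NK1.1 (Klrb1c), depend on the transcription factor T-bet and make interferon-γ. ILC1 are best known from liver, salivary gland and other tissues, where they stay resident and carry CXCR6, CD49a (Itga1), CD200R1 and the death ligand TRAIL (Tnfsf10), and many carry the IL-7 receptor. Circulating NK cells additionally need Eomes and carry Ly49 receptors, CD49b (Itga2), CD11b (Itgam) and large stores of perforin and granzymes. Tmem176a and Tmem176b encode related membrane proteins of intracellular vesicles, and Ckb encodes the brain-type creatine kinase, which buffers ATP.

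The gene pair that defined the cells lies head to head on chromosome 6 (GRCm38). Tmem176a (ENSMUSG00000023367) spans 48840919-48847071 on the plus strand and Tmem176b (ENSMUSG00000029810) spans 48833818-48841496 on the minus strand. In RefSeq the first listed start sites lie 346 bases apart, at 48841483 and 48841137, and the promoter windows, each from 250 bases before to 50 after the start, overlap by 155 bases. The windows are shown because both transcripts were counted towards membership and because their starts share this stretch, which is printed in capitals in each window as read on that gene's own strand. The Tmem176a window is chr6:48841233-48841532 (plus strand, GRCm38.p6) and the Tmem176b window is chr6:48841088-48841387 (minus strand, GRCm38.p6).
Tmem176a: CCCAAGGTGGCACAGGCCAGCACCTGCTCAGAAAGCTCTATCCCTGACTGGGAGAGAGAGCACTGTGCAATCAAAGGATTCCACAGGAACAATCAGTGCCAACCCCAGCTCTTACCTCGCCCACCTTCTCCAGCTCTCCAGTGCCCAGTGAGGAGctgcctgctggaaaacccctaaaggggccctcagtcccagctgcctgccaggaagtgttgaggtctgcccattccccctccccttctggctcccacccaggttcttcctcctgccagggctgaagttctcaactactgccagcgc
Tmem176b: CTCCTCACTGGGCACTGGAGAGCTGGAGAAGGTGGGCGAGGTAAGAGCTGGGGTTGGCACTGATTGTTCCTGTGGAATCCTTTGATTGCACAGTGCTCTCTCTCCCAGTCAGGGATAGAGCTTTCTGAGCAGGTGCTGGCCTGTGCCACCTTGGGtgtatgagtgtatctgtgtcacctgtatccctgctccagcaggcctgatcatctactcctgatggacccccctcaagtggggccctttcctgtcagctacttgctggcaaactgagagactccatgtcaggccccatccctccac
Each motif was searched on both strands in 27025 RefSeq promoter windows of the same length. Neither window held the T-box half-site GTGTGA, found in 14.4% of all windows, the RUNX site TGTGGT (16.9%), the nuclear receptor half-site AGGTCA (16.0%) or TATAAA (14.2%). The E-box CANNTG, present in 72.1% of windows, occurred 2 times in the Tmem176a window and 3 times in the Tmem176b window. CACCTG at bases -230 to -225 from the Tmem176a start and CAGGTG at -121 to -116 from the Tmem176b start are the same bases of the shared stretch, read on opposite strands. The windows of the companion genes differed from these: that of Il7r held 1 T-box half-site, 1 RUNX site and 3 E-boxes, that of Cxcr6 1 RUNX site and 1 E-box, and that of Ckb 1 T-box half-site and 1 TATAAA. A match describes the letters and not binding.

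The genes of the rule chose the cells, so their levels are given as a description. Tmem176a plus Tmem176b had a median of 5 UMIs per ILC1-like cell in both libraries, with at most 44 in control and 36 in DR. Il7r, the IL-7 receptor α chain, had a median of 8 UMIs in control and 7 in DR, and a UMI of it was present in 207 and 283 of the cells. Cxcr6, the receptor for CXCL16, was found in 113 and 121 cells and Ckb in 140 and 202. A UMI of all 3 companion genes was present in 78 control cells (35.8%) and 98 DR cells (33.4%). The companion requirement was therefore met mostly through Il7r. Summed over cells, Il7r stood at 1160 CPM (UMI counts scaled to a total of 1000000 over those cells) in the control library and 1056 CPM in the DR library, against 43.0 and 83.7 CPM in the other gated cells. Ncr1, also in the gate, stood at 1297 and 1286 CPM against 1235 and 1074 CPM.

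The cells nearest the threshold were as follows. Exactly 2 Tmem176 UMIs were present in 31 control and 54 DR members. Just outside, 60 control and 63 DR gated cells had 1 Tmem176 UMI with a companion, and 18 and 27 had at least 2 Tmem176 UMIs without a companion. When every gated cell was first thinned to 3000 UMIs, 112 control and 166 DR cells met the rule.

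The label was set beside marker genes that the rule did not use. The lists were chosen with earlier results of these data known, so they are no independent check of the label. The 22 remaining genes of a 27-gene ILC1 list summed to 7463 and 7226 CPM in control and DR ILC1-like cells, against 2089 and 2388 CPM in the other gated cells. The 19 remaining genes of the NK list summed to 3420 and 3654 CPM, against 24033 and 19980 CPM. Lists of other innate lymphoid cells summed to less than the ILC1 list. The 10 ILC3 genes summed to 223 and 113 CPM, which was above the 41.2 and 38.3 CPM of the other gated cells. The 10 ILC2 genes summed to 140 and 120 CPM, against 291 and 183 CPM. B cell genes other than those of the gate summed to 250 and 268 CPM, against 14668 and 22184 CPM in the B cells of the same libraries. Macrophage genes summed to 20.3 and 49.96 CPM, neutrophil genes to 3.09 and 12.7, erythroid genes to 3.53 and 0.410 and platelet genes to 2.65 and 3.69. The 13 genes of a dendritic cell list, which includes MHC class II, were not low: they summed to 1193 and 670 CPM, against 743 and 737 CPM in the other gated cells and 25248 and 29632 CPM in the B cells, with 5 of the 13 at 0 in the ILC1-like cells. Of 6 genes compared in both libraries, H2-Aa, H2-Ab1 and Cd74 were at least 2-fold higher in the ILC1-like cells in both, and 1 was lower. Of the T cell genes, the receptor constant region Trac stood at 3.53 and 4.91 CPM, whereas Trbc1 and Trbc2, whose constant regions innate lymphocytes transcribe without rearrangement, stood at 529 and 505 CPM and at 615 and 539 CPM. The NKT factor Zbtb16 was at 10.6 and 11.5 CPM. The data thus carried ILC1 genes at a high level in these cells and NK genes at a low but not absent level.

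Single cells showed the same separation once every cell had been thinned to 3000 UMIs, with 4 control and 8 DR ILC1-like cells too shallow to be included. A median of 7 of the 22 ILC1 genes and 3 of the 19 NK genes was detected per ILC1-like cell in both libraries. In the other gated cells the medians were 2 ILC1 genes, and 12 NK genes in control and 11 in DR.

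**Figure D1:**
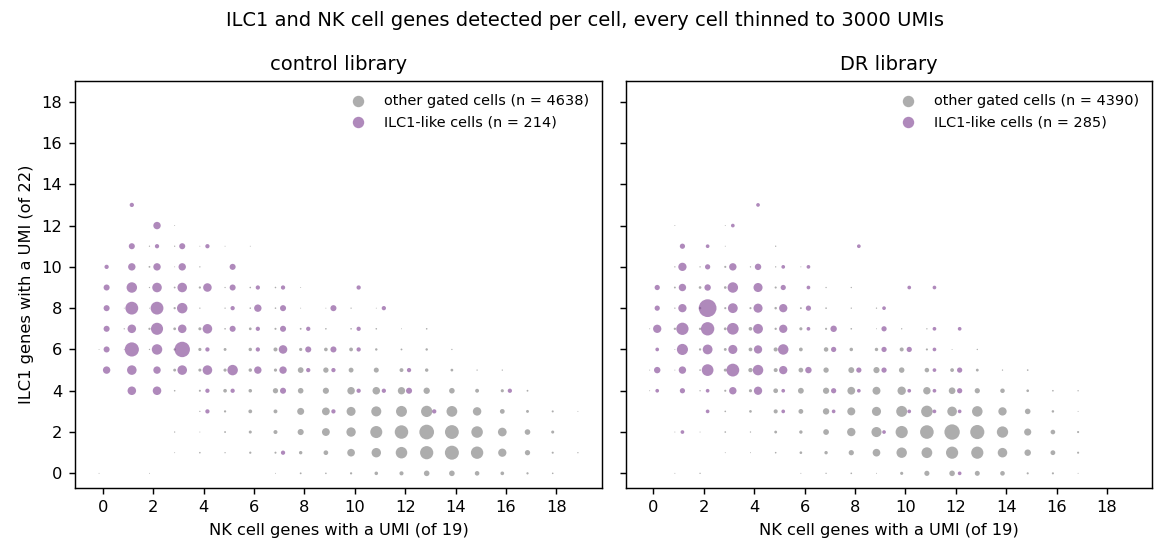
Number of NK genes (x axis, of 19) against number of ILC1 genes (y axis, of 22) detected per cell after thinning to 3000 UMIs, with the rule's genes left out. Each circle is a combination of counts and its area is the share of the cells of that group, for the control (left) and DR (right) library; ILC1-like cells centre on 7 ILC1 and 3 NK genes and the other gated cells on 2 ILC1 and 11 or 12 NK genes.

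ILC1-like cells made up 4.25% of gated cells in control (218 of 5130, interval 3.71 to 4.84%) and 5.98% in DR (293 of 4896, interval 5.34 to 6.69%). Because the rule counts UMIs and the DR cells were shallower, the share was also taken after thinning to 3000 UMIs before the rule was applied. It was then 2.31% in control (112 of 4843 cells) and 3.56% in DR (166 of 4657). The share was larger in the DR library under each rule tried. Whether this difference exceeds that between animals or sorts cannot be told from 1 library each.

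Genes were compared between ILC1-like and other gated cells within each library, at a mean of at least 20 CPM, and counted as higher or lower at a ratio of at least 2 whose counting interval left out 1. Of 5734 genes compared in both libraries, 107 were higher (1.87%) and 80 lower (1.40%) in both, and 0 went opposite ways. In control alone 196 of 6007 genes were higher (3.26%) and 143 lower (2.38%), and in DR alone 144 of 5927 were higher (2.43%) and 97 lower (1.64%). Among the genes compared in both libraries, the 107 shared higher genes were 69.0% of those called in control and 86.3% of those called in DR, and the 80 shared lower genes were 60.6% and 87.0%. The cells had been chosen from the same counts, so these figures describe the cells and support no test. The median log2 ratio of all genes was 0.01 in control and 0.02 in DR.

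Of 16 ILC1 genes compared in both libraries, 13 were higher in both and 0 lower. Tnfrsf25, which encodes a TNF family receptor for TL1A, stood at 78.2 CPM (control) and 63.1 CPM (DR), against 1.89 and 1.61 CPM in the other gated cells. Its log2 ratios were 5.37 (interval 4.97 to 5.78) and 5.29 (4.81 to 5.80). A Tnfrsf25 UMI was found in 46.8% and 36.9% of ILC1-like cells, in 1.18% and 0.891% of other gated cells and in 1.04% and 0.246% of B cells, whose median depths were 8076 and 6594 UMIs. Tcrg-C4, a T cell receptor γ constant gene transcribed without a T cell receptor in some innate lymphocytes, stood at 225 and 242 CPM against 16.4 and 18.7 CPM. It was detected in 67.4% and 70.3% of ILC1-like cells, in 5.46% and 5.11% of the others and in 0 of 96 control B cells (which allows up to 3.77%, exact interval) and 0.737% of DR B cells. Reads of the near-identical Tcrg-C genes may be divided among them. Its partner Tcrg-C1 was at 42.4 and 16.0 CPM against 0.256 and 0.454 CPM, while the δ constant gene Trdc was lower, at 26.1 and 29.9 CPM against 74.5 and 87.2 CPM.

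The highest ratios also included receptors and signalling genes. The IL-2 receptor α chain gene Il2ra stood at 41.1 and 43.4 CPM against 1.25 and 1.92 CPM. Gpr183, the oxysterol receptor EBI2 that positions lymphocytes in spleen, stood at 123 and 77.4 CPM against 2.38 and 4.05 CPM. It was not particular to the ILC1-like cells, since B cells held it at 121 and 110 CPM, in 45.8% and 46.4% of them. The phosphoinositide phosphatase gene Inpp4b stood at 77.3 and 104 CPM against 4.89 and 7.69 CPM. In each of these the ILC1-like cells were above the other gated cells by more than the counting error in both libraries. Genes with no settled role in these cells stood out as strongly. Fam184b was at 54.3 and 47.1 CPM against 1.43 and 1.75 and Podnl1 at 117 and 149 against 6.17 and 12.02. Ttn, Dtx1 (a Deltex ubiquitin ligase of the Notch pathway), Asb2, Cd200r1, Serpina3f and Gzmc were also among the 15 highest. B cells carried Dtx1 too, at 147 and 138 CPM, against 205 and 183 CPM in the ILC1-like cells.

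**Figure D2:**
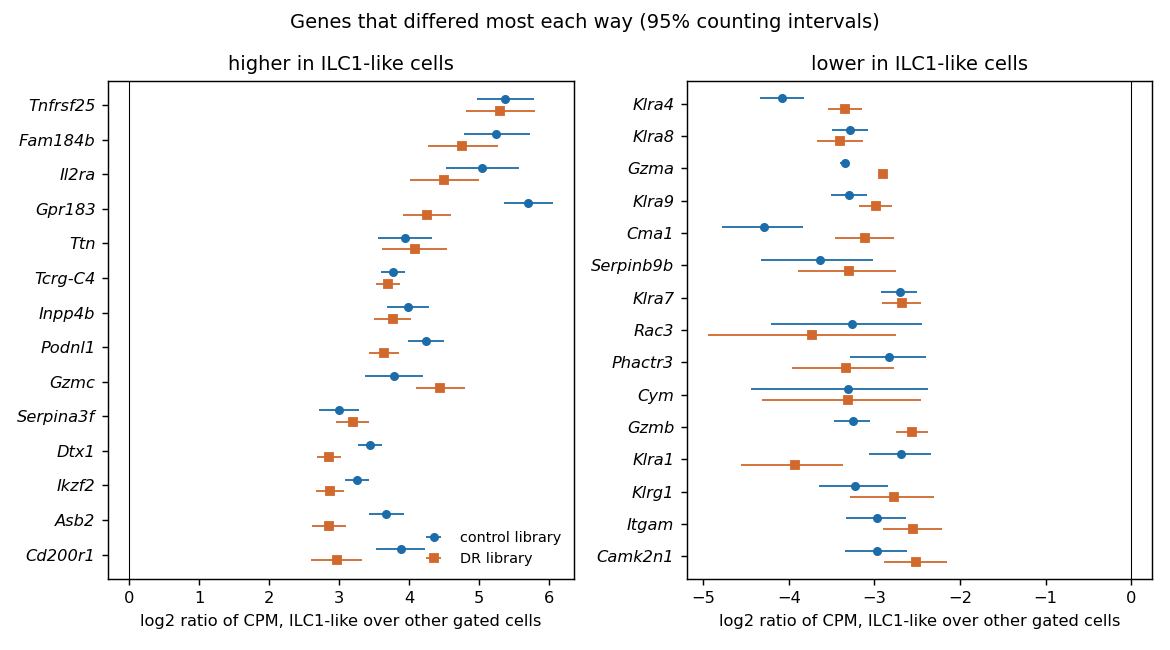
Log2 ratio of CPM in ILC1-like over other gated cells (x axis) for genes with the largest ratio in each direction, ranked by the interval end nearest 1, with 95% counting intervals and 1 marker per library. Tnfrsf25, at 5.37 and 5.29, is among the highest and Klra4, at -4.07 and -3.34, among the lowest; control and DR markers lie on the same side of 0 for every gene shown.

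Inhibitory and activating receptors separated the populations most on the lower side. All 6 Ly49 genes compared in both libraries were lower in ILC1-like cells. Klra4, which encodes the activating receptor Ly49D, stood at 56.6 and 84.4 CPM against 953 and 855 CPM, a log2 ratio of -4.07 (-4.34 to -3.82) and -3.34 (-3.55 to -3.14). Klra8, the Ly49H receptor for a cytomegalovirus protein, stood at 86.2 and 47.1 CPM against 838 and 497 CPM. A Klra8 UMI was present in 18.3% and 7.85% of ILC1-like cells, against 13.5% and 3.19% of B cells, which should lack the gene and held it at 16.1 and 3.93 CPM. Klra7 and Klra9 stood below the other gated cells as well, at 83.1 and 66.8 CPM against 541 and 427 CPM and at 83.1 and 93.0 CPM against 816 and 734 CPM. The Klra genes are close copies and their counts may be divided among them.

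Of 10 NKG2 and NKR-P1 family genes, 2 were higher and 3 lower in both libraries. Klrb1b, which encodes the inhibitory receptor NKR-P1B, was higher at 452 and 543 CPM against 102 and 168 CPM. Klre1, Klri2 and Klrg1 were lower, and Klrg1, a receptor of mature NK cells, stood at 23.4 and 15.2 CPM against 219 and 104 CPM. Among 13 activating receptors and adaptors 2 were higher, Cd226 (DNAM-1, 336 and 355 CPM against 57.4 and 75.6) and Cd160 (593 and 670 CPM against 154 and 183), and 2 were lower, Cd247 and Sh2d1a. Of 4 checkpoint receptor genes 3 were higher: Cd200r1, the inhibitory MHC class II ligand receptor Lag3 (50.4 and 47.1 CPM against 6.55 and 7.20) and Lilrb4a.

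Of 12 cytotoxic effector genes, 3 were lower in both libraries and 1 was higher. Gzma, granzyme A, stood at 1333 and 1564 CPM against 13535 and 11680 CPM, with log2 ratios of -3.34 (-3.40 to -3.29) and -2.90 (-2.95 to -2.85). Gzmb stood at 82.2 and 97.9 CPM against 784 and 577 CPM and Prf1, perforin, at 199 and 239 CPM against 1196 and 946 CPM. A Gzma UMI was present in 73.9% and 61.8% of ILC1-like cells but also in 61.5% and 41.3% of B cells, which should lack the gene. Its share of cells thus stood not far above that background. Its level did, since the B cells held it at 122 and 92.7 CPM. Gzmc, granzyme C, went the other way at 40.2 and 80.7 CPM against 2.92 and 3.70 CPM. It came from few cells: a UMI was found in 20 control and 29 DR ILC1-like cells, and the 10 cells with the most held 86.8% and 88.3% of its UMIs. The mast cell protease gene Cma1, which splenic NK cells also transcribe, was at 17.2 and 29.5 CPM against 337 and 255 CPM.

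Of 9 cytokine and chemokine genes 3 were higher and 0 lower in both libraries. The summed level of the 15-gene list was nevertheless lower, at 12417 and 15614 CPM against 19310 and 18472 CPM. Most of it was the chemokine gene Ccl5, at 8824 and 12391 CPM against 17946 and 17226 CPM, with log2 ratios of -1.02 (past the 2-fold limit in control) and -0.48. Ltb, lymphotoxin β, stood at 1189 and 1014 CPM against 128 and 204 CPM. Xcl1, which attracts cross-presenting dendritic cells, stood at 1534 and 1245 CPM against 366 and 362 CPM. Tnfsf10, which encodes TRAIL, stood at 88.4 and 77.8 CPM against 11.2 and 12.2 CPM. Ifng was at 72.9 and 82.3 CPM against 62.1 and 55.2 CPM and passed the 2-fold limit in neither library. The TNF superfamily as a whole had 5 of 10 genes higher and 0 lower, with Tnfsf8 (CD30 ligand) at 46.4 and 38.9 CPM against 9.49 and 8.94.

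Receptors for cytokines were less divided: 3 of 14 genes were higher and 1 lower. Besides Il2ra, the stem cell factor receptor gene Kit was higher, at 149 and 102 CPM against 46.2 and 29.7 CPM. Il10ra was lower, at 37.995 and 38.5 CPM against 98.0 and 82.0 CPM. Of 15 homing and residency genes 2 were higher and 3 lower. S1pr5, the sphingosine-1-phosphate receptor with which NK cells leave tissue, stood at 34.0 and 31.5 CPM against 223 and 152 CPM. Klf2, a factor that drives sphingosine-1-phosphate receptor genes, was at 679 and 575 CPM against 1504 and 1296 CPM. Among 9 integrins the collagen-binding Itga1 was higher, at 50.8 and 66.8 CPM against 6.29 and 10.2 CPM, and Itgam, Itga2 and Itga4 were lower. Itgam stood at 30.0 and 29.9 CPM against 236 and 174 CPM, and Itga2 at 76.9 and 71.3 CPM against 225 and 168 CPM.

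Transcription factors followed the same division, with 6 of 23 genes higher and 5 lower in both libraries. Tbx21, which encodes T-bet and is needed by both lineages, stood at 131 and 140 CPM against 150 and 144 CPM, with log2 ratios of -0.20 (-0.37 to -0.03) and -0.05 (-0.21 to 0.11). Eomes, the factor of NK cell maturation, was lower, at 56.6 and 62.2 CPM against 328 and 317 CPM, with log2 ratios of -2.53 (-2.80 to -2.28) and -2.35 (-2.59 to -2.12). Zeb2, a factor of terminal NK cell maturation, was lower at 99.8 and 106 CPM against 682 and 451 CPM. T-bet transcript levels were therefore within 2-fold of the other gated cells, whereas those of the maturation factors were not. Rora stood at 139 and 144 CPM against 12.3 and 25.1 CPM. Ahr, the aryl hydrocarbon receptor, stood at 57.4 and 65.1 CPM against 7.70 and 12.9 CPM. Ikzf2, which encodes Helios, stood at 190 and 141 CPM against 19.98 and 19.4 CPM. Tcf7, a factor of lymphoid progenitors and immature NK cells, was higher at 165 and 158 CPM against 65.9 and 78.8 CPM. The other genes past the limit, named after their values were seen to complete the counts, were Maf and Batf (higher) and Irf8, Prdm1 and Klf2 (lower). Gata3 at 106 and 93.0 CPM against 70.4 and 77.9, and Id2 at 2117 and 2135 CPM against 1472 and 1759, did not pass it. Zfp683, which encodes Hobit, a factor of liver ILC1 in mice, was too low to be compared, at 6.19 and 10.2 CPM against 0.230 and 0.489 CPM.

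**Figure D3:**
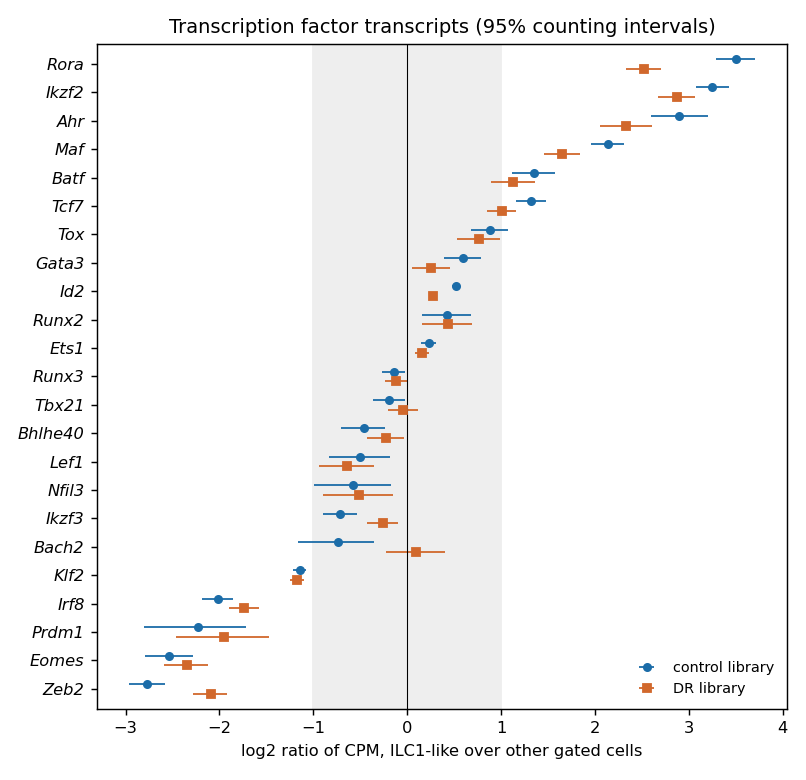
Log2 ratio of CPM in ILC1-like over other gated cells (x axis) for the 23 transcription factor genes compared, with 95% counting intervals and 1 marker per library; the grey band marks ratios under 2-fold. Rora, Ahr and Ikzf2 lie to the right, Eomes and Zeb2 to the left, and Tbx21 inside the band.

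Several lists had 0 genes past the limit, which at a share over all genes of 1.87% higher and 1.40% lower is no result about lists of their size. These were MHC class I and peptide loading (0 of 11 genes past 2-fold in both libraries), the mitochondrial genome (0 of 13), energy metabolism genes (0 of 6), mTOR and growth genes (0 of 9) and cold and heat shock genes (0 of 7). Of 9 immediate early and NF-κB genes 1 was higher, the inhibitor gene Nfkbia at 444 and 455 CPM against 185 and 218 CPM. Of 9 genes of immature NK cells 4 were higher, namely Cd226, Emb, Kit and Tcf7, and Ctla2a was lower. Cd27 stood at 167 and 155 CPM against 88.9 and 130 CPM, under the limit. Of 11 BCL2 family genes 1 was higher, Bcl2a1d, a member of a family of near-identical copies.

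Il7r alone did not mark the same cells. Gated cells with an Il7r UMI and 0 Tmem176 UMIs numbered 390 in control and 483 in DR, with median depths of 9284 and 7401 UMIs. Against these neighbours 41 of 5725 genes were 2-fold higher in the ILC1-like cells and 34 lower in both libraries. The examples that follow in this and the next paragraphs on subgroups were chosen after their values were seen. Tnfrsf25 was at 7.28 and 5.70 CPM in the neighbours, Il2ra at 3.76 and 4.14 CPM, and Rora at 29.1 and 42.7 CPM. Eomes stood at 275 and 237 CPM and Klra4 at 547 and 488 CPM in the neighbours, against 56.6 and 62.2 CPM and 56.6 and 84.4 CPM in the ILC1-like cells. The T cell receptor complex gene Cd3d was at 122 and 133 CPM in the neighbours and at 21.6 and 9.83 CPM in the ILC1-like cells. The NK list summed to 11620 and 9317 CPM in the neighbours, between its sums in the ILC1-like cells and in the other gated cells, and the ILC1 list to 4391 and 4698 CPM, between them as well.

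The ILC1-like cells were not uniform. An Eomes UMI was present in 45 control cells (20.6%) and 59 DR cells (20.1%), compared with 79.8% and 74.9% of other gated cells and 2.08% and 0.983% of B cells. Eomes-positive members were deeper, at a median depth of 11875 (control) and 10582 (DR) UMIs, while Eomes-negative members had 8814 and 7242. Of 5644 genes, 25 were 2-fold higher and 26 lower in Eomes-positive members in both libraries. Gzma was at 3478 and 4352 CPM against 533 and 462 CPM, and Klra4 at 161 and 276 CPM against 17.6 and 8.57 CPM. Lower in Eomes-positive members were the rule's genes Cxcr6 (42.3 and 50.6 CPM against 178 and 127) and Ckb (89.5 and 110 CPM against 239 and 314), and Gzmc (9.76 and 8.67 CPM against 51.6 and 109). After thinning, Eomes-positive members had a median of 6 ILC1 and 6 NK genes in both libraries, and Eomes-negative members 7 ILC1 genes and 2 (control) or 3 (DR) NK genes. Doublets of an NK cell and another cell were neither called nor removed, and their part in the Eomes-positive members was not tested.

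A second, smaller group carried Ccr6 or Il23r, the chemokine receptor and IL-23 receptor genes that ILC3, another class of innate lymphoid cell, is known to use. A UMI of either was present in 16 control members (7.34%, interval 4.25 to 11.6%) and 9 DR members (3.07%, interval 1.41 to 5.75%). Ccr6 was detected in 15 and 8 members, against 2 of 4912 and 6 of 4603 other gated cells, and in 32.3% and 31.0% of B cells. Il23r was detected in 4 and 3 members, in 1 other gated cell of each library and in 0 of 96 and 0 of 407 B cells. Of 5328 genes, 115 were 2-fold higher and 84 lower in these members in both libraries. They had Ccl5 at 422 and 906 CPM against 9417 and 12749 CPM in the remaining members, and Ifng at 0 UMIs in both libraries against 78.05 and 84.9 CPM. The MHC class II gene H2-Aa stood at 1607 and 1055 CPM against 78.99 and 47.3 CPM, its invariant chain gene Cd74 at 2953 and 2124 CPM against 333.0 and 195 CPM, and Cd4 at 194 and 135 CPM against 6.62 and 4.65 CPM. At least 5 MHC class II UMIs were present in 13 of the 16 and 8 of the 9. Nkg7 was lower there too, at 335 and 365 CPM against 2013 and 2006 CPM. The membership rule therefore also admitted cells with ILC3 genes, and results that rest on them are given below with and without them.

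Fewer genes differed between members by companion gene. Members with a Ckb UMI and no Cxcr6 UMI, 59 in control and 103 in DR, differed from members with Cxcr6 by 0 genes higher and 8 lower of 5663 in both libraries, and Cxcr6 itself was 1 of the 8. The former held 645014 and 877058 UMIs, and the Ccr6 or Il23r members 149316 and 73930. Numbers of genes move with depth, so they do not show which trait divided the members more.

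Between the libraries, 6026 genes of the ILC1-like cells were compared and counted at a ratio of at least 1.5 whose counting interval left out 1. In DR 117 genes were higher (1.94%) and 223 lower (3.70%), with a median log2 ratio over all genes of -0.055. In the other gated cells 44 of 5867 genes were higher (0.750%) and 62 lower (1.06%). Counting limits differ between these populations because the ILC1-like cells held fewer UMIs, so the numbers of genes do not show which population differed more. The split depended on scaling: scaled by the median of ratios it was 157 higher and 170 lower, and with totals that exclude ribosomal protein and mitochondrial genes it was 205 and 224. With cells carrying UMIs of other lineages left out it was 165 and 196, from 100 control and 137 DR members. The genes of that setting were Cd3d, Cd3g, Trac, Cd74, Lyz2, Igkc and Jchain. The median percentage of mitochondrial UMIs per ILC1-like cell was 1.97% in control and 2.86% in DR, and its part in the differences was not tested.

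Most genes of the ILC1 and NK lists were not past the limit between the libraries, although the share past it was above that of all genes (1.94% higher and 3.70% lower). Of 19 ILC1 genes 1 was higher in DR (Gzmc) and 2 were lower (Gpr183 and Tcrg-C1), and of 17 NK genes 1 was higher (Cma1) and 1 lower (Klra8). Eomes, the factor named in the study's title, had a log2 ratio of 0.14 (interval -0.21 to 0.49) in the ILC1-like cells and -0.05 (-0.08 to -0.01) in the other gated cells. Tbx21 had log2 ratios of 0.09 and -0.06. Of 25 transcription factors 1, Bach2, was higher in DR and 0 were lower. Cytokine receptors (0 of 15), the TNF superfamily (0 of 10), integrins (0 of 10), activating receptors (0 of 13), MHC class I genes (0 of 11) and BCL2 family genes (0 of 11) had none past the limit in either direction. Gpr183 went from 123 to 77.4 CPM, a log2 ratio of -0.67 (-0.95 to -0.40). Gzmc rested on single cells, since 33 of its 91 control UMIs and 75 of its 197 DR UMIs came from 1 cell in each library, and its log2 ratio of 1.005 became -0.22 without cells carrying other-lineage UMIs.

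Several genes were higher in the DR library in many ILC1-like cells. Apol7e, an apolipoprotein L family gene, had 2 UMIs in control and 116 in DR, or 0.884 and 47.5 CPM, a log2 ratio of 5.75 (3.86 to 8.81). In DR these lay in 94 of the 293 cells. The other gated cells stood at 0.614 and 23.2 CPM, under the 20 CPM mean needed for a call. Atp8a2, a phospholipid flippase gene, stood at 8.39 and 48.7 CPM and was found in 15 control and 69 DR members. Socs2, a feedback inhibitor of cytokine and growth hormone signalling, stood at 35.8 and 95.8 CPM, with UMIs in 39 and 91 members and a log2 ratio of 1.42 (1.05 to 1.80). For both, the other gated cells had a ratio of similar size at a lower level: 1.10 and 5.80 CPM for Atp8a2, and 6.19 and 18.7 CPM for Socs2. The cholesterol transport gene Stard4 (13.7 and 40.1 CPM) and the cold-inducible RNA-binding protein gene Cirbp (142 and 267 CPM) were also higher in DR, and Cirbp was higher in the other gated cells too, at 159 and 290 CPM.

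For Dusp2 and Klrb1a the populations gave different values. Dusp2, a phosphatase of MAP kinases, stood at 290 CPM (control) and 542 CPM (DR) in ILC1-like cells, a log2 ratio of 0.90 (0.77 to 1.04), and at 580 and 465 CPM in the other gated cells, a log2 ratio of -0.32 (-0.35 to -0.29). Klrb1a, which encodes the receptor NKR-P1A, stood at 173 and 320 CPM, a log2 ratio of 0.89 (0.71 to 1.07), against 311 and 302 CPM, a log2 ratio of -0.04 (-0.08 to -0.00). Their UMIs were spread over cells: Dusp2 was found in 159 and 234 members and Klrb1a in 126 and 216. No test of the difference between populations was possible with 1 library per group. The inhibitory receptor genes Lilrb4a (42.0 and 87.2 CPM) and Lilr4b (15.02 and 50.8 CPM) were higher in DR, and as near-identical neighbours they may share counts. In the other gated cells their levels were lower and their log2 ratios of similar size, 0.90 for Lilrb4a (1.06 in ILC1-like cells) and 1.47 for Lilr4b (1.76). Olfr1259, an olfactory receptor gene, stood at 12.4 and 29.9 CPM, with log2 ratios of 1.27 in ILC1-like and 1.41 in other gated cells.

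Egr3, an immediate early factor, was the exception, with 17 control and 92 DR UMIs in 7 and 9 members. In DR 40 of the 92 came from 1 cell, and the log2 ratio of 2.33 became -0.22 without cells carrying other-lineage UMIs. The macrophage gene Lyz2 was also higher in DR, at 8.84 and 35.6 CPM, and 63 of its 87 DR UMIs came from 1 cell. Smaller differences were seen in glucocorticoid-responsive genes, of which 2 of 5 were higher: Ddit4 (140 and 212 CPM) and Tsc22d3, which encodes GILZ (91.0 and 139 CPM). The FOXO target Pik3ip1 was higher, at 20.8 and 42.6 CPM, as 1 of 10 genes of its list. Of 13 mitochondrially encoded genes 4 were higher in DR, among them mt-Co2 at 2470 and 4336 CPM, and 3 of 13 were higher in the other gated cells.

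**Figure D4:**
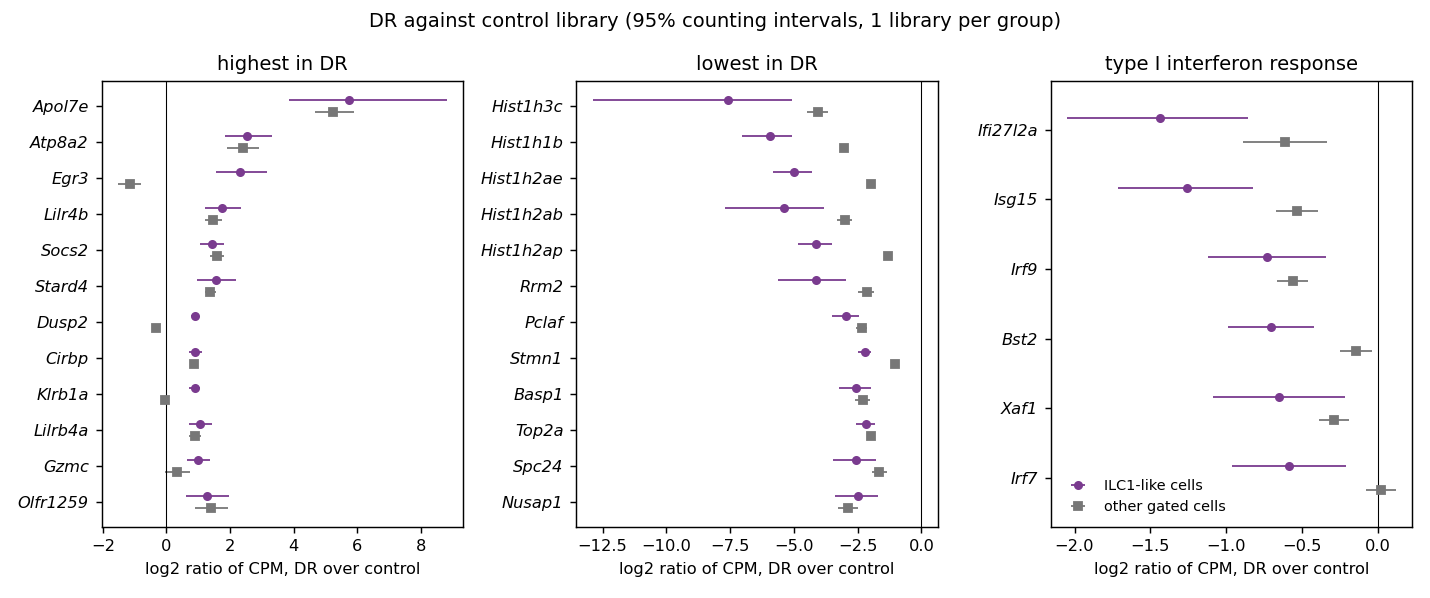
Log2 ratio of CPM in the DR over the control library (x axis) with 95% counting intervals, for ILC1-like and other gated cells, in 3 panels: the 12 genes highest in DR, the 12 lowest and 6 of the 7 interferon response genes compared. Markers of other lineages were left out of the ranking behind the first 2 panels. Apol7e, at 5.75, leads the first panel, histone genes such as Hist1h1b, at -5.95, lie lowest in the second, and the 6 interferon genes lie below 0 in the ILC1-like cells.

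Interferon response genes were lower in the DR ILC1-like cells: 7 of 7 compared were past the limit and 0 were higher, with a median log2 ratio of -0.71 against -0.055 over all genes. Isg15, a ubiquitin-like modifier, went from 61.9 to 25.8 CPM, a log2 ratio of -1.26 (-1.71 to -0.82). Ifi27l2a stood at 38.9 and 14.3 CPM and the membrane tether Bst2 at 116 and 71.3 CPM. The factors Irf7 and Irf9 were also among those past the limit. In the other gated cells 0 of the 6 genes that reached 20 CPM passed the limit, with a median of -0.34, so the populations were not compared over the same genes. Ifi27l2a was under 20 CPM there, at 8.80 and 5.76 CPM, with a log2 ratio of -0.61 (-0.89 to -0.34). In the ILC1-like cells it reached the mean through its control level and could only be lower. The list's 13 genes summed to 689 and 414 CPM in the ILC1-like cells and to 432 and 334 CPM in the other gated cells. In the B cells of the same libraries the sum was also lower in DR, at 1523 and 642 CPM, with Ifi27l2a at 962 and 369 CPM. The transcripts were not confined to a few members, since 208 control and 262 DR members had a UMI of the list and the top 10 cells held 23.7% and 16.1% of them. With cells carrying other-lineage UMIs left out, 2 of 8 genes passed the limit and the median was -0.40, and with the members rich in MHC class II UMIs left out 4 of 8 did, at a median of -0.61.

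Cell cycle genes were lower in DR as well, 12 of 12 with a median log2 ratio of -1.56. In the other gated cells 3 of 8 were lower, at a median of -0.43. The sets of genes that reached 20 CPM differed between the populations, so these figures are not over the same genes. Stmn1, a microtubule regulator, stood at 289 and 61.8 CPM, Pclaf at 114 and 14.7 CPM and the ribonucleotide reductase subunit gene Rrm2 at 42.9 and 2.46 CPM. Pclaf and Rrm2 reached the 20 CPM mean through their control level and could only be lower. Replication-dependent histone genes showed the lowest ratios. Hist1h1b stood at 254 and 4.10 CPM, a log2 ratio of -5.95 (-7.02 to -5.07), and Hist1h3c at 78.6 and 0.410 CPM with 1 UMI in DR. The Hist1 genes are close copies. These transcripts came from few cells: 11 control and 6 DR members had at least 5 UMIs of 8 cell cycle genes, or 5.05% (2.55 to 8.85%) and 2.05% (0.755 to 4.40%), with median depths of 25326 and 15729 UMIs. The top 10 members held 93.8% of the UMIs of these 8 genes in control and 83.7% in DR. Without the members with at least 5 such UMIs, 2 of the 6 genes that then reached 20 CPM were lower and the median was -0.32.

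**Figure D5:**
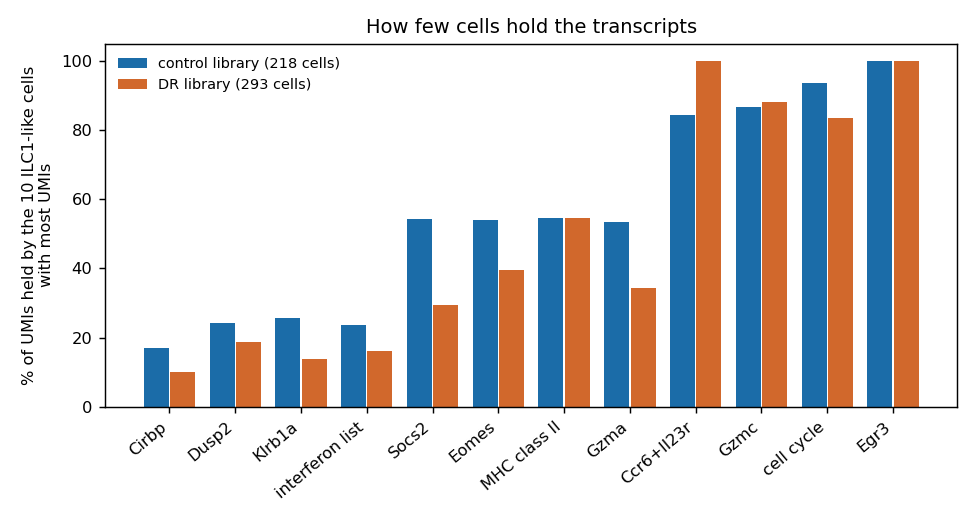
Percentage of the UMIs of a gene or gene group held by the 10 ILC1-like cells with the most (y axis, bars from 0), for 12 genes or gene groups (x axis) in the control and DR library. The 8 cell cycle genes, at 93.8% and 83.7%, and Gzmc, at 86.8% and 88.3%, rest on few cells, whereas Dusp2 (24.2% and 18.7%) and Klrb1a (25.6% and 13.7%) are spread over many.

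MHC class II genes were lower in the DR ILC1-like cells. H2-Aa stood at 180 and 77.8 CPM in control and DR ILC1-like cells, H2-Ab1 at 152 and 60.6 CPM, H2-Eb1 at 130 and 38.5 CPM and Cd74 at 506 and 253 CPM. All 4 were lower in DR past the limit. In the other gated cells all 4 were higher in DR. H2-Aa stood there at 8.65 and 27.3 CPM, H2-Ab1 at 7.62 and 27.9 CPM, H2-Eb1 at 7.52 and 24.3 CPM and Cd74 at 34.1 and 75.1 CPM. Of these only Cd74 reached the 20 CPM mean needed for a call. The 10 ILC1-like cells with the most held 54.7% of the MHC class II UMIs in each library. At least 5 MHC class II UMIs were present in 52 control members (23.9%) and 43 DR members (14.7%), a share set by the same transcripts. With the members carrying Ccr6 or Il23r left out, 4 of 6 genes of the dendritic list compared were still past the limit. The ILC3 list gave 2 of 2 genes lower, Lta (35.8 and 16.8 CPM) and Ncoa7 (145 and 78.6 CPM), and without the Ccr6 or Il23r members 0 of 1 passed. Lta reached the 20 CPM mean through its control level and could only be lower. Without those members the log2 ratio of H2-Aa went from -1.21 to -0.74, that of Cd74 from -0.999 to -0.77 and that of Ncoa7 from -0.89 to -0.32. Tnf was lower at 30.9 and 18.4 CPM.

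Basp1, which encodes a membrane-bound signalling protein, was lower in DR across cells rather than in a few. It stood at 63.2 and 10.6 CPM, a log2 ratio of -2.57 (-3.23 to -1.96), and was detected in 67 control members (30.7%) and 18 DR members (6.14%). The other gated cells stood at 18.6 and 3.77 CPM. Its log2 ratio lay between -3.59 and -2.18 under every alternative tried. Klra8 was lower in both populations, at 86.2 and 47.1 CPM in ILC1-like cells and 838 and 497 CPM in the others. Ccl5 stood at 8824 and 12391 CPM in ILC1-like cells, a log2 ratio of 0.49 (0.46 to 0.52), under the 1.5-fold limit, and at 17946 and 17226 CPM in the other gated cells.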

How the data were processed

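Splenic NK cells of 1 control and 1 DR library were profiled with the 10x Genomics Single Cell 3' v3.1 chemistry, per the labels' protocols. The deposited values are whole-number UMI counts per gene and barcode, not normalized, for 32285 genes. The matrix headers name Cell Ranger 5.0.1, while the submitters' processing notes name Cell Ranger 2.1.1 and mm10. The conflict could not be settled. Library totals were 44526828 UMIs in control (5702 barcodes) and 42134212 in DR (6287 barcodes), and 5487 and 6120 barcodes passed the limits on genes and mitochondrial UMIs.

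From the counts, UMIs were summed over the cells of each population and library and divided by the population's total UMIs to give CPM. CPM intervals are exact Poisson, ratio intervals exact conditional binomial and share intervals exact Clopper-Pearson, all at 95%. Cells are not replicates, so no test was run, and a difference was called by its size and a counting interval that left out 1. Genes were described where they averaged 20 CPM or more over the groups compared, at a ratio of at least 2 between populations and at least 1.5 between libraries. A gene could therefore enter through the group where it was high. Free RNA was judged from B cells: barcodes with at least 2 UMIs of Cd79a plus Ms4a1 and 0 of the other gate genes (96 control and 407 DR). Requiring 0 UMIs of Ncr1 and Klrb1c favours barcodes with little free NK cell RNA, so this background may be too low. Doublets were not called; leaving out cells over 2 times the median UMIs was an alternative. Thinning used 3000 UMIs per cell.

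Named genes were the 15 each way against other gated cells, the 12 each way in DR against control, up to 4 per list of 37 lists, and 38 markers, 153 in all. Ranking used the interval end nearest 1, without mitochondrial, ribosomal, immunoglobulin, haemoglobin, T cell receptor variable, rule and unnamed genes. The ranking of DR against control also left out markers of other lineages, such as MHC class II genes and Lyz2. Some genes of the lists are counted but not reported here by name. The members and lists were chosen with earlier results of these data known. Promoter windows came from RefSeq (GRCm38.p6) and gene coordinates from GENCODE for GRCm38, the assembly behind mm10. Alternatives changed the scaling, the filter, the weight of cells, the membership rule, the gate and the depth, and left out subgroups of members. Subgroup alternatives were added after the data were seen. The count summaries were tested on simulated data. Python 3.11.15, numpy 2.4.6, scipy 1.17.1 and pandas 2.3.3 were used.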

Additional observations from a re-analysis of the deposited data

Results flagged for a closer look

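Cd74, which encodes the invariant chain of MHC class II, differed in direction between the populations, as did H2-Aa, H2-Ab1 and H2-Eb1. The log2 ratio of Cd74, DR over control, was -0.999 (interval -1.14 to -0.86) in ILC1-like cells, from 506 to 253 CPM. In the other gated cells it was 1.14 (1.04 to 1.24), from 34.1 to 75.1 CPM. The difference was not tested, since each group has 1 library. The 10 ILC1-like cells with the most held 54.7% of the MHC class II UMIs, Cd74 included, in each library. The lower value in DR was smaller in size without the Ccr6 or Il23r members. It changed sign without the MHC class II-rich members, a setting that selects on the same transcripts. A Cd74 UMI was present in 42.7% of control and 37.2% of DR ILC1-like cells, in 9.41% and 14.2% of the other gated cells, and in 99.0% and 99.8% of B cells. DR held 407 B cells and control 96, and the part of their free RNA in these values was not tested.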

How the results depend on the processing

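No paired analysis was possible because each group has 1 library. The share of ILC1-like cells in control and DR was 2.31 and 3.56% after thinning, 3.65 and 4.88% at 3 or more Tmem176 UMIs, 5.42 and 7.27% at 1 or more, 2.77 and 4.57% without cells carrying other-lineage UMIs and 3.37 and 4.78% without Eomes-positive members. The counts of genes moved most with the filter. At 5 CPM, 533 were higher and 267 lower in control ILC1-like cells, 386 and 220 in DR cells, and 233 and 467 between libraries. At 50 CPM these were 78 and 79, 64 and 54, and 30 and 64. With no filter they were 1065 and 376, 817 and 309, and 264 and 528. Without ribosomal protein and mitochondrial genes, 205 were higher in DR.

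Of 77 called genes named against the other gated cells, every one kept its sign in both libraries under the 2 other scalings and equal weight of cells. A filter on CPM cannot change a ratio. Of 51 called between libraries, every one kept its sign under those settings and under the 3 other Tmem176 or companion rules. Depth limits the subgroups most, since 9 DR members with Ccr6 or Il23r held 73930 UMIs. The log2 ratios that changed sign were mostly of cell cycle and MHC class II genes, and their cause was not tested. Leaving out cycling or MHC class II-rich members selects on the transcripts counted, so their values under those settings are no independent check. The same holds for MHC class II genes and Lyz2 where other-lineage cells were left out, since Cd74 and Lyz2 were among the genes of that setting. Against other gated cells, Top2a in control was -2.17 without other-lineage cells, -0.76 without cells over 2 times the median UMIs, -2.67 without cycling members, -0.9997 without MHC class II-rich members and -3.02 with those subgroups and the Ccr6 or Il23r members (all 3) left out. In DR it was -0.060 (other-lineage cells out), -0.27 (thinned), -1.09 (cycling members out) and -0.85 (all 3 out). H2-Aa in control was -0.89 (other-lineage cells out), -1.49 (MHC class II-rich out) and -1.68 (all 3 out). In DR with MHC class II-rich members out, H2-Aa was -1.23, H2-Ab1 -0.39 and Cd74 -0.56, and with all 3 out -1.18, -0.45 and -0.53. Between libraries, leaving out other-lineage cells gave Gzmc -0.22, Egr3 -0.22, Hist1h2ap 1.19, Top2a 0.16, Spc24 0.52, Lta 0.78, Ncoa7 0.13, H2-Aa 2.24, H2-Ab1 0.96, H2-Eb1 0.63, Tnf 0.15 and Mki67 0.19. Leaving out cells over 2 times the median UMIs gave Hist1h2ap 0.81, Rrm2 1.90, Pclaf 1.23, Top2a 0.085 and Mki67 1.02. Without Ccr6 or Il23r members Lyz2 was -0.16. Without cycling members Hist1h2ae was 0.21, Hist1h2ab 0.76, Hist1h2ap 0.69, Rrm2 1.35, Spc24 0.25 and Nusap1 0.76. Without MHC class II-rich members Nusap1 was 2.56, Lta 0.52, Lyz2 -0.18, H2-Aa 1.92, H2-Ab1 0.86, H2-Eb1 0.24, Cd74 0.22 and Mki67 0.49. Without all 3 Hist1h2ae was 0.20, Hist1h2ab 0.57, Hist1h2ap 0.57, Top2a 0.19, Spc24 1.15, Lta 0.61, Lyz2 -0.26, H2-Aa 2.15, H2-Ab1 0.92, H2-Eb1 0.57, Cd74 0.16 and Mki67 0.89.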
